A study of Mus musculus with 6 samples.

Results

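Mesenchymal and EMT transcription factors were examined in mouse bone marrow mesenchymal stem cells (BMMSCs) in which Tet1 and Tet2 had been knocked down. The set held 8 genes, Snai1, Snai2, Twist1, Twist2, Zeb1, Zeb2, Prrx1 and Prrx2, which were found by their symbols among the 36870 distinct symbols of the deposited RNA-seq table. All 8 were among the 13266 symbols that reached a mean of 0.1 RPKM and were tested. RPKM is the number of reads on a gene per kilobase of its length and per unit of sequencing depth, so that levels of genes of different length can be set side by side. The BMMSCs were the adherent cells grown from the flushed marrow of C57BL/6 mice, and the comparison was between 3 libraries from cells given a non-targeting siRNA (control) and 3 from cells given siRNAs against Tet1 and Tet2 together (siTet1/Tet2). The RNA-sequencing methods call the control cells vehicle-treated, whereas the siRNA methods and the labels name a non-targeting siRNA, and the passage is the first in the methods and the second in the labels. Libraries were made from total RNA and read from both ends on a HiSeq instrument. The labels do not say whether libraries of a group came from separate animals or cultures, so p-values measure only the spread between these libraries, which may be technical.

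Epithelial-mesenchymal transition (EMT) is the programme by which cells lose epithelial junctions and become migratory, and the same transcription factors are made at a steady level by many mesenchymal cells, including fibroblasts and skeletal progenitors. Snai1 and Snai2 are zinc finger repressors that bind E-box sequences in epithelial genes such as Cdh1, Twist1 and Twist2 are basic helix-loop-helix (bHLH) factors of mesoderm and of skeletal progenitors, and Zeb1 and Zeb2 are large repressors with zinc fingers and a homeodomain. Prrx1 and Prrx2 are paired-related homeobox factors of limb and craniofacial mesenchyme, and an enhancer of Prrx1 drives the Prx1-Cre transgene used for limb mesenchyme. Tet1 and Tet2 are dioxygenases that oxidize methylated cytosine, which in mammals lies mostly at CG dinucleotides.

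The sequence before the transcription start was taken from RefSeq for the build GRCm38.p6, which had entries for 6 of the 8 genes, namely Snai1, Twist1, Twist2, Zeb2, Prrx1 and Prrx2. Across their 9 start sites, windows of 300 bases (250 before the start and 50 after it) differed widely in the number of CG dinucleotides. The Snai1 window held 34 CG, the Prrx2 window 28, the Twist1 window 27, the Twist2 window 25 and the Prrx1 window 6. The 4 start sites of Zeb2 had 19, 8, 8 and 9. Over all 32851 windows of mouse genes the median was 7 CG, with quartiles of 3 and 20. The 250 bases before the start are shown for Snai1, which was dense in CG and fell in the siTet1/Tet2 libraries, for Twist1, which was similar in both respects, and for the most upstream start of Zeb2, the gene that did not fall. They run 5' to 3' on the strand of the gene with every CG in capitals, and were read at chr2:167537945-167538194 (plus strand), chr12:33957421-33957670 (plus strand) and chr2:45117443-45117692 (minus strand), all upstream of the annotated start.
Snai1: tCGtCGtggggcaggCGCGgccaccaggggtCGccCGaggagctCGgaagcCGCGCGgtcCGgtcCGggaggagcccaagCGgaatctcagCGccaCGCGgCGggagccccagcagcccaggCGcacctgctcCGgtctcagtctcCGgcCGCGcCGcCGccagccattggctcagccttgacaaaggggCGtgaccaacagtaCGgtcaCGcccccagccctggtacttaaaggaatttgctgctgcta
Twist1: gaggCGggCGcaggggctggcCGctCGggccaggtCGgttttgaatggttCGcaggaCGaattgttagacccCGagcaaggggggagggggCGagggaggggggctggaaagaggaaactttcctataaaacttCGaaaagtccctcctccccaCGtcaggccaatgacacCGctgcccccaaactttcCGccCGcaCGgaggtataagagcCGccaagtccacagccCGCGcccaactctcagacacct
Zeb2: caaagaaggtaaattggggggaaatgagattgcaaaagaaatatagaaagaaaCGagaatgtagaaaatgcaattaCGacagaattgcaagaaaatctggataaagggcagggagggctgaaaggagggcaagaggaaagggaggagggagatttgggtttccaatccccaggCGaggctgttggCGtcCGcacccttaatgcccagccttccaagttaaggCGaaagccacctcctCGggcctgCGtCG

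The Snai1 stretch held 27 CG, the Twist1 stretch 18 and the Zeb2 stretch 9. The E-box letters bound by Snail and Zeb factors, CACCTG or its reverse complement CAGGTG, were searched on both strands and occurred in 20.2% of all windows. They occurred in 1 of the 9 windows of these genes, that of Snai1, where CACCTG began 126 bases before the start. Prrx1, with 6 CG in its window, and Snai1, with 34, were both lower in the siTet1/Tet2 libraries. Methylation at these bases was not analysed here.

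The knockdown of Tet2 was visible in the same libraries. For Tet2 the control libraries gave 2.57, 4.08 and 3.71 RPKM, against 0.358, 0.238 and 0.202 RPKM after the knockdown (limma adjusted p = 2.88e-05). Tet1 lay between 0.032 and 0.098 RPKM in control and between 0.001, the lowest value listed, and 0.01 RPKM in siTet1/Tet2. It was under the filter for testing, and values this low rest on few reads, so its knockdown was not tested here. Tet3, the family member not targeted, did not pass the test (adjusted p = 0.508, limma). The table gives no read totals, and the totals at which low values came closest to whole reads were 32400000 to 37500000 for control and 35600000 to 38700000 for siTet1/Tet2, with 52.3% to 59.6% of the values within 0.1 of a whole number. The 10 most abundant genes took 10.6% to 11.8% of the summed RPKM in control and 17.8% to 20.1% in siTet1/Tet2.

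Of the 8 factors, 7 were lower in the siTet1/Tet2 libraries and none was higher (limma, Benjamini-Hochberg adjusted p under 0.05). Beside them, 29.8% of all genes tested were lower and 14.7% were higher (44.5% in either direction). When each library was centred on stromal marker genes, none to 4 of the 8 were still lower, depending on the form of the centring. Those forms called 12138 to 12958 of the 13266 genes tested, and 0.463% to 2.73% of the calls were lower. The 7 that were lower with values as deposited were Snai1, Snai2, Twist1, Twist2, Zeb1, Prrx1 and Prrx2. In bulk libraries, fewer cells that make these factors and less of their RNA per cell cannot be told apart. In all of them the 3 siTet1/Tet2 libraries lay below the 3 control libraries, which was so for 35.9% of all genes, beside 19.8% in the opposite direction and 55.7% in either. Their control means were 3.09 to 7.49 times their siTet1/Tet2 means, and the same 7 passed the rule of p under 0.05 before adjustment with a change of more than 2-fold, which 5.63% of all genes passed in the lower and 0.95% in the higher direction. The median log2 fold change of the 8 was -1.53, beside -0.09 over all genes tested. Zeb2 was the exception, with overlapping groups, and was not higher at an unadjusted p under 0.05 either (limma).

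**Figure D1:**
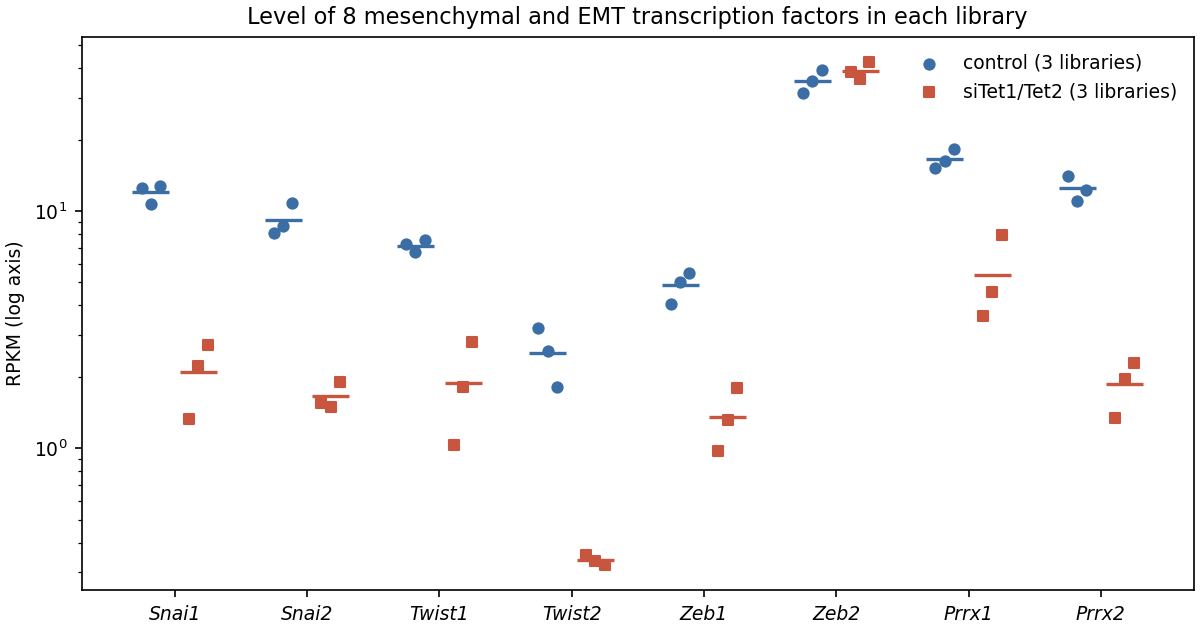
RPKM (log axis) of the 8 factors in each of the 3 control (blue circles) and 3 siTet1/Tet2 (red squares) libraries, with the group mean as a line. In 7 of the 8 genes all siTet1/Tet2 points lie below all control points, and for Zeb2 the points of the groups overlap. With centring on the stromal list 0 to 4 of the genes were lower past the test, beside 0.463% to 2.73% of the calls over all genes.

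The Snail factors fell to similar extents. Snai1 (chr2:167538195-167542814, plus strand, GRCm38), which starts EMT by repressing Cdh1, stood at 12.5, 10.7 and 12.7 RPKM in control and at 1.32, 2.23 and 2.73 RPKM in siTet1/Tet2. The highest siTet1/Tet2 library was far below the lowest control library. The mean was 12.0 ± 1.09 RPKM (SD, n = 3) in control and 2.09 ± 0.713 RPKM in siTet1/Tet2, which is a ratio of 5.73, and the log2 fold change of RPKM plus 1 was -2.09 with a standard error of 0.17 (limma adjusted p = 4.17e-05). Snai2, or Slug (chr16:14705852-14709385, plus strand), a factor of neural crest and of mesenchymal progenitors, stood at 8.06, 8.60 and 10.9 RPKM in control and at 1.56, 1.50 and 1.90 RPKM in siTet1/Tet2. Again the groups were well apart, with little spread among the siTet1/Tet2 libraries. The control mean was 9.17 ± 1.48 RPKM (SD, n = 3) against 1.65 ± 0.218 RPKM, a ratio of 5.55, and the log2 fold change was -1.93 ± 0.12 (standard error, limma adjusted p = 1.40e-05). The third gene of the family, Snai3, was at 0.017 RPKM or less in every library and was not tested.

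Both Twist genes fell. Twist1 (chr12:33957671-33959829, plus strand), a factor that holds back osteoblast maturation, stood at 7.24, 6.69 and 7.53 RPKM in control and at 1.03, 1.82 and 2.82 RPKM in siTet1/Tet2. The control libraries were close to each other, whereas the siTet1/Tet2 libraries were spread out, and the groups did not overlap. The mean went from 7.15 ± 0.429 to 1.89 ± 0.894 RPKM (SD, n = 3), a ratio of 3.78, and the log2 fold change was -1.54 ± 0.20 (standard error, limma adjusted p = 0.000461). Twist2, also called Dermo1 (chr1:91801461-91848028, plus strand), a factor of dermal and bone mesenchyme, stood at 3.21, 2.56 and 1.81 RPKM in control and at 0.356, 0.334 and 0.322 RPKM in siTet1/Tet2. It was the least abundant of the 8 in both groups and, unlike Twist1, varied among the control libraries and hardly among the siTet1/Tet2 libraries. Its mean fell from 2.53 ± 0.701 to 0.337 ± 0.0172 RPKM (SD, n = 3), a ratio of 7.49, the largest of the 8. The log2 fold change of RPKM plus 1 was -1.38 ± 0.14 (standard error, limma adjusted p = 0.000113), a scale that understates the change of a gene at this level. About 148 to 304 reads in control and 29 to 34 reads in siTet1/Tet2 lay behind the Twist2 values at the estimated depths.

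The Zeb genes parted. Zeb1, which represses Cdh1 and the miR-200 genes, stood at 4.07, 5.02 and 5.47 RPKM in control and at 0.970, 1.31 and 1.80 RPKM in siTet1/Tet2, with a wide gap between the groups. Its mean fell from 4.85 ± 0.716 to 1.36 ± 0.416 RPKM (SD, n = 3), a ratio of 3.57, and the log2 fold change was -1.32 ± 0.15 (standard error, limma adjusted p = 0.000201). Zeb2 (chr2:44983632-45117395, minus strand), which is known both as an EMT repressor and as a factor of macrophages and other blood cells, stood at 31.4, 35.2 and 39.3 RPKM in control and at 38.6, 36.0 and 42.5 RPKM in siTet1/Tet2. A pair of siTet1/Tet2 libraries lay inside the range of the control libraries and the last one above it. The means of 35.3 ± 3.99 and 39.0 ± 3.25 RPKM (SD, n = 3) gave a log2 fold change of 0.14 ± 0.09 (standard error), with a 95% interval of -0.07 to 0.36 and a limma adjusted p of 0.248. At the estimated depths 10678 to 11625 reads in control and 12728 to 13805 in siTet1/Tet2 lay behind these values. Zeb2os, the antisense partner of Zeb2, was listed at 0.001 RPKM in all 6 libraries, and whether the counting used strand is not given in the sources used here.

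Both Prrx genes fell. Prrx1 (chr1:163245119-163313710, minus strand), a marker of limb and skeletal progenitors, stood at 15.1, 16.3 and 18.3 RPKM in control and at 3.60, 4.56 and 7.91 RPKM in siTet1/Tet2. The siTet1/Tet2 libraries differed more among themselves than for any other member by their SD, apart from Zeb2, yet the highest was well below the control libraries. The mean fell from 16.6 ± 1.58 to 5.35 ± 2.26 RPKM (SD, n = 3), a ratio of 3.09 and the smallest of the 7, and the log2 fold change was -1.52 ± 0.22 (standard error, limma adjusted p = 0.000732). Prrx2 (chr2:30834972-30881251, plus strand), its partner in the patterning of limb and face, stood at 14.1, 11.0 and 12.3 RPKM in control and at 1.34, 1.96 and 2.28 RPKM in siTet1/Tet2, again with the groups apart. The mean fell from 12.5 ± 1.54 to 1.86 ± 0.478 RPKM (SD, n = 3), a ratio of 6.70, with the largest log2 fold change of the 8 on this scale, -2.24 ± 0.14 (standard error, limma adjusted p = 1.44e-05).

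The order of the levels in RPKM changed little at its ends and much in its middle. In control, Zeb2 was highest, followed by Prrx1, Prrx2, Snai1, Snai2, Twist1, Zeb1 and Twist2. The ranges of neighbours over the 3 libraries overlapped for Prrx2 and Snai1 and for Snai1 and Snai2, and for no other neighbours. In siTet1/Tet2, Zeb2 was again highest, Prrx1 next and Twist2 lowest, while the ranges of neighbours from Snai1 through Twist1, Prrx2 and Snai2 to Zeb1 overlapped throughout. The mean of Zeb2 was 2.13 times that of Prrx1 in control and 7.29 times in siTet1/Tet2.

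Among the siTet1/Tet2 libraries most factors had the same order. Replicate 3 was the highest for 7 of the 8, with Twist2 as the exception, and replicate 1 was the lowest for 5 of the 8. The summed level of stromal marker genes was likewise lowest in replicate 1 (274 RPKM) and highest in replicate 3 (473 RPKM), with 352 RPKM in replicate 2. Leaving out any single library kept the same 7 calls, with log2 fold changes of Prrx1 between -1.79 and -1.32 and of Twist1 between -1.77 and -1.31.

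Within a library, the ratio of the paralogs of a pair hardly depends on how the library is scaled. Of the 4 pairs, Snai1 and Snai2 kept their ratio most closely, with a log2 ratio (RPKM plus 0.1) of 0.63, 0.32 and 0.23 in control and -0.22, 0.54 and 0.50 in siTet1/Tet2, so that the groups overlapped (exact permutation p = 0.8, two-sided). The log2 ratio of Twist1 to Twist2 was 1.50 ± 0.45 in control and 2.08 ± 0.74 in siTet1/Tet2 (SD, n = 3, exact permutation p = 0.3), with overlapping groups. For Zeb1 over Zeb2 it was -2.91, -2.79 and -2.82 in control and -5.18, -4.68 and -4.49 in siTet1/Tet2, with the groups far apart. That difference of -1.94 had an exact permutation p of 0.1, the smallest that 3 libraries against 3 can give, so the design cannot reach 0.05 here. For Prrx1 over Prrx2 the log2 ratio was 0.10, 0.56 and 0.57 in control and 1.36, 1.17 and 1.75 in siTet1/Tet2, a difference of 1.02 with the groups apart and the same exact permutation p of 0.1. Adjusted over the 4 pairs by the Benjamini-Hochberg method, the exact permutation p was 0.2 for Zeb1/Zeb2 and Prrx1/Prrx2, 0.4 for Twist1/Twist2 and 0.8 for Snai1/Snai2.

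**Figure D2:**
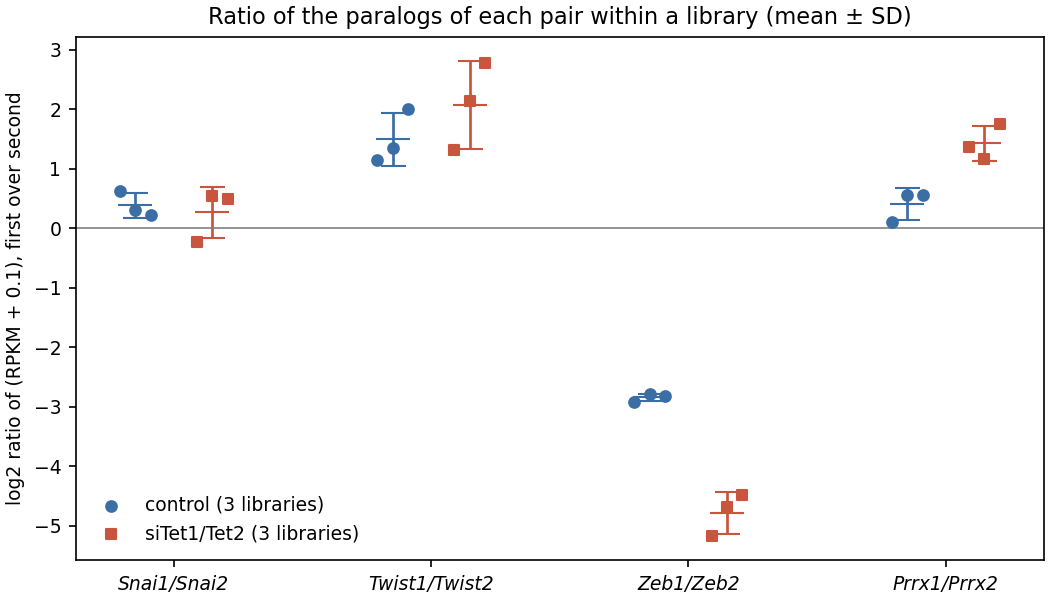
Log2 ratio of RPKM plus 0.1 between the paralogs of each pair, first gene over second, in the 3 control (blue circles) and 3 siTet1/Tet2 (red squares) libraries, with mean and SD. The groups overlap for Snai1/Snai2 and Twist1/Twist2, and lie apart for Zeb1/Zeb2 (means of -2.84 and -4.78) and Prrx1/Prrx2 (means of 0.41 and 1.43).

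The cultures held RNA of more than stromal cells, and the balance of marker genes moved with the factors. Of the 20 stromal markers in the table, 17 were tested, 14 were lower and 1 was higher (limma adjusted p under 0.05). Their median log2 fold change was -2.23 and their summed level was 1476.5 to 2011 RPKM in control and 274 to 473 RPKM in siTet1/Tet2. Pdgfra, a receptor that marks marrow stroma, had means of 9.92 and 0.944 RPKM, and Cxcl12, the chemokine by which stroma retains blood stem cells, 38.9 and 3.99 RPKM. Vcam1, an adhesion molecule also made by macrophages, was the member that rose, from a mean of 16.9 to 55.9 RPKM. Lepr and Lum, which mark marrow stroma and fibroblasts, and Thy1, a surface marker of mesenchymal stem cells, were under the filter, at 0.146 RPKM or less in every library.

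Of 19 macrophage markers, all tested, 7 were higher and 4 lower in siTet1/Tet2, and the median log2 fold change was 0.18. Their summed level was 12146 to 15466 RPKM in control and 20725 to 24145 RPKM in siTet1/Tet2. Most of the rise of the sum was in lysozyme, Lyz2, which went from a mean of 4439 to 11321 RPKM. Of the 19 markers, 8 did not pass the test. The high-affinity antibody receptor Fcgr1 fell from 109 to 27.8 RPKM. The leukocyte marker Ptprc (CD45) was at 47.4 to 56.0 RPKM in control and 47.2 to 59.3 RPKM in siTet1/Tet2, and the macrophage growth factor receptor Csf1r at 478 to 519 and 578 to 619 RPKM. Endothelial markers were low in both groups, with sums of 5.26 to 5.77 and 8.12 to 8.72 RPKM over 10 genes, of which 7 were tested, 2 were lower and 3 higher. The higher sums reflect Vwf, which rose from a mean of 1.93 to 6.10 RPKM, and not the list as a whole. Esam and Pecam1 were also higher, at means of 0.156 and 0.175 RPKM in control and 0.409 and 0.377 RPKM in siTet1/Tet2. The median log2 fold change was -0.20, and the 2 lower genes, Kdr and Emcn, fell from 1.58 to 0.604 and from 0.380 to 0.152 RPKM. Of 12 lymphoid, erythroid and neutrophil markers 1 was tested and was higher, S100a8, and their sums were 1.95 to 2.39 and 9.33 to 16.2 RPKM.

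How far the factors moved relative to the stromal markers depended on how the markers were summarised. The 17 stromal markers tested had a median log2 fold change of RPKM plus 1 of -2.23. On this scale Prrx2 at -2.24 and Snai1 at -2.09 had changed about as much and the other factors less. The order differed for the plain ratio of the control to the siTet1/Tet2 mean, which was 4.86 for Pcolce, the marker at that median. Twist2 (7.49), Prrx2 (6.70), Snai1 (5.73) and Snai2 (5.55) lay above it, and Twist1, Zeb1, Prrx1 and Zeb2 lay below it. When each library was centred on the median change of these markers, no factor was lower at an adjusted p or an unadjusted p under 0.05 (limma). Prrx2 was at -0.18, Snai1 at -0.03 and Snai2 at 0.13 (limma adjusted p = 0.532, 0.914 and 0.649), and Twist1 at 0.52 and Prrx1 at 0.54 did not pass the test either (adjusted p = 0.0686 and 0.0632, limma). Twist2 at 0.68, Zeb1 at 0.74 and Zeb2 at 2.21 were higher than the stromal list, as were most genes. In this form 12958 of the 13266 genes tested were called, and 0.463% of those calls were lower. When each library was instead centred on the median level of the 20 stromal markers, which moved all genes by 1.67 rather than 2.06, Prrx2 at -0.57 and Snai1 at -0.42 were lower (limma adjusted p = 0.00257 and 0.0259), while Snai2, Twist1, Prrx1, Twist2 and Zeb1 lay between -0.26 and 0.35 and did not pass the test. Zeb2 was at 1.81. The spread of the list between libraries enters every gene's value, so that these p-values are not independent between genes.

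A pseudocount of 1 compresses the change of low genes, so both forms were repeated with a pseudocount of 0.01. Centred on the median change of the markers, no factor was lower, with Twist2 at -0.57, Prrx2 at -0.50 and Snai1 at -0.31 (limma adjusted p = 0.162, 0.164 and 0.396), and Zeb2 was higher, at 2.41. Centred on their median level, Snai1 (-0.73), Snai2 (-0.62), Twist2 (-0.99) and Prrx2 (-0.92) were lower, while Twist1 (-0.19), Zeb1 (-0.02) and Prrx1 (0.14) did not pass the test (limma adjusted p = 0.432, 0.936 and 0.55). Zeb2 was thus higher than the stromal markers in all 4 forms, and no other factor differed from them in the same direction past the test in all 4. Most genes were higher in these forms too. Of the 13266 tested, 12138 to 12958 were called, and 0.463% to 2.73% of those calls were lower. The centring on the median change and the pseudocount of 0.01 in these forms were chosen after seeing the data. Centred on the macrophage list instead, the same 7 were lower, and Zeb2 was at 0.04 (limma adjusted p = 0.773). The part of the marker genes in these results was not tested.

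**Figure D3:**
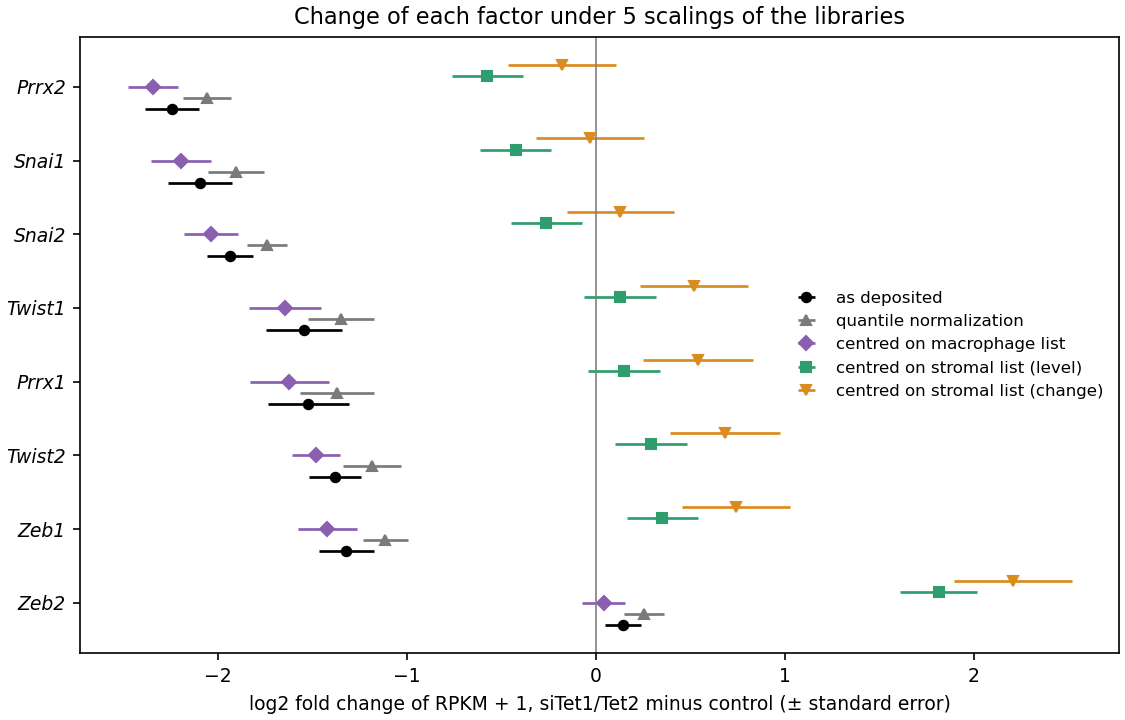
Log2 fold change of RPKM plus 1, siTet1/Tet2 minus control, with its standard error, for each factor under 5 scalings of the libraries. With values as deposited (black circles), after quantile normalization (grey triangles) and centred on macrophage markers (purple diamonds) 7 factors lie below zero and Zeb2 near it, whereas centred on the median level of stromal markers (green squares) Twist1, Prrx1, Twist2, Zeb1 and Zeb2 lie above zero, and centred on their median change (orange triangles) Snai2 does too and Snai1 is at -0.03.

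Genes that bind or antagonize the Twist proteins moved in part. Of 13 bHLH partners and inhibitors, 8 were tested, 4 were lower and 1 was higher (limma adjusted p under 0.05). The median log2 fold change was -0.30, beside -0.09 over all genes. Id1, an inhibitor that takes up bHLH partners, fell from 108.9, 92.3 and 88.1 RPKM to 41.5, 45.7 and 43.9 RPKM. Id4 fell from a mean of 3.73 to 0.603 RPKM and Id3 from 215.9 to 162.7 RPKM. Tcf12, an E protein that pairs with Twist1, fell from 17.5 to 14.6 RPKM, and Id2 rose from 222.9 to 283.0 RPKM (limma adjusted p = 0.0427), a call that was lost without 1 library in 4 of 6 cases.

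Of 15 co-repressors through which Snail and Zeb proteins act, all were tested and 6 were lower and none higher, also none at an unadjusted p under 0.05 (limma), and the median log2 fold change was -0.14, near the -0.09 of all genes, of which 29.8% were lower and 14.7% higher. Ajuba, a LIM protein that bridges Snai1 to other repressors, fell from a mean of 4.60 to 1.56 RPKM (limma adjusted p = 0.000101). Hdac2, a histone deacetylase, went from 41.8 to 30.7 RPKM, the Polycomb methyltransferase Ezh2 from 18.1 to 13.5 RPKM and Ctbp2 from 19.4 to 14.9 RPKM. Ajuba was the single gene of the 6 that changed by more than 2-fold. Of 15 genes for the turnover of Snail proteins, 14 were tested, 4 were lower and 2 higher, with a median of -0.12, shares close to those of all genes. The kinase Prkd1 fell from 1.39 to 0.206 RPKM and the COP9 signalosome subunit Cops2 from 38.0 to 25.8 RPKM, while the phosphatases Ctdsp2 and Ctdsp1, which stabilize Snai1, rose from 14.5 to 19.3 and from 28.3 to 33.9 RPKM, of which 1 call was lost without siTet1/Tet2 replicate 2 or replicate 3.

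Among 39 other mesenchymal transcription factors and cofactors, 29 were tested, 23 were lower and 1 was higher. Centred on the stromal list, 0 to 7 were lower and 9 to 24 higher over the 4 forms. Those forms called 12138 to 12958 of all 13266 genes tested, with 0.463% to 2.73% of the calls lower. With values as deposited, the median log2 fold change was -1.14. Tbx15, a T-box factor of the limb skeleton, fell from a mean of 8.10 to 1.25 RPKM (limma adjusted p = 1.69e-05) and Shox2, a homeobox factor of proximal limb growth, from 5.23 to 0.886 RPKM. Hmga2, a chromatin protein of progenitor cells, fell from 31.6 to 12.8 RPKM. Mkl2, a coactivator of serum response factor, was the member that rose, from 9.74 to 13.4 RPKM.

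The genes that EMT factors are known to act on moved unequally. Of 36 mesenchymal effectors, all tested, 28 were lower and 1 was higher. Centred on the stromal list, 2 to 7 were lower and 14 to 16 higher in the 4 forms. Over all 13266 genes tested those forms called 12138 to 12958, and 0.463% to 2.73% of the calls were lower. With values as deposited, the median log2 fold change was -1.53. Smooth muscle actin, Acta2, fell from a mean of 788 to 157 RPKM and the gelatinase Mmp2 from 40.8 to 6.92 RPKM, and Mmp3 and Fst, a stromelysin and the activin antagonist follistatin, fell from 3.70 to 0.524 and from 4.81 to 0.809 RPKM. S100a4, a calcium-binding protein of fibroblasts and macrophages, was the member that rose, from 107 to 230.2 RPKM. Vim, the intermediate filament vimentin, was at 1763 to 1787 RPKM in control and 1486 to 1538 RPKM in siTet1/Tet2 and did not pass the test (limma adjusted p = 0.0794). This list and the stromal list both hold matrix genes of fibroblasts.

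Epithelial genes, which Snail and Zeb factors repress, stayed low. Of 38 in the table, 12 were tested, 5 were lower and 2 higher (5 higher with quantile normalization), and the median log2 fold change was -0.07, close to that of all genes. Cdh1 (E-cadherin), their best known target, was at 0.066, 0.075 and 0.091 RPKM in control and at 0.018, 0.053 and 0.019 RPKM in siTet1/Tet2, under the filter for testing. Every siTet1/Tet2 library lay below the control libraries, as was so for 35.9% of all genes tested. Values this low rest on few reads, and no change of Cdh1 can be read from them. Epcam was at 0.029 RPKM or less in every library. The members that fell were led by Tjp1, a junction scaffold that mesenchymal cells also make, from 4.71 to 1.01 RPKM, and Krt7 and Krt19, keratins of simple epithelia, fell from 0.803 to 0.130 and from 2.35 to 0.789 RPKM. The junction scaffold Tjp3 rose from 1.42 to 3.22 RPKM.

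**Figure D4:**
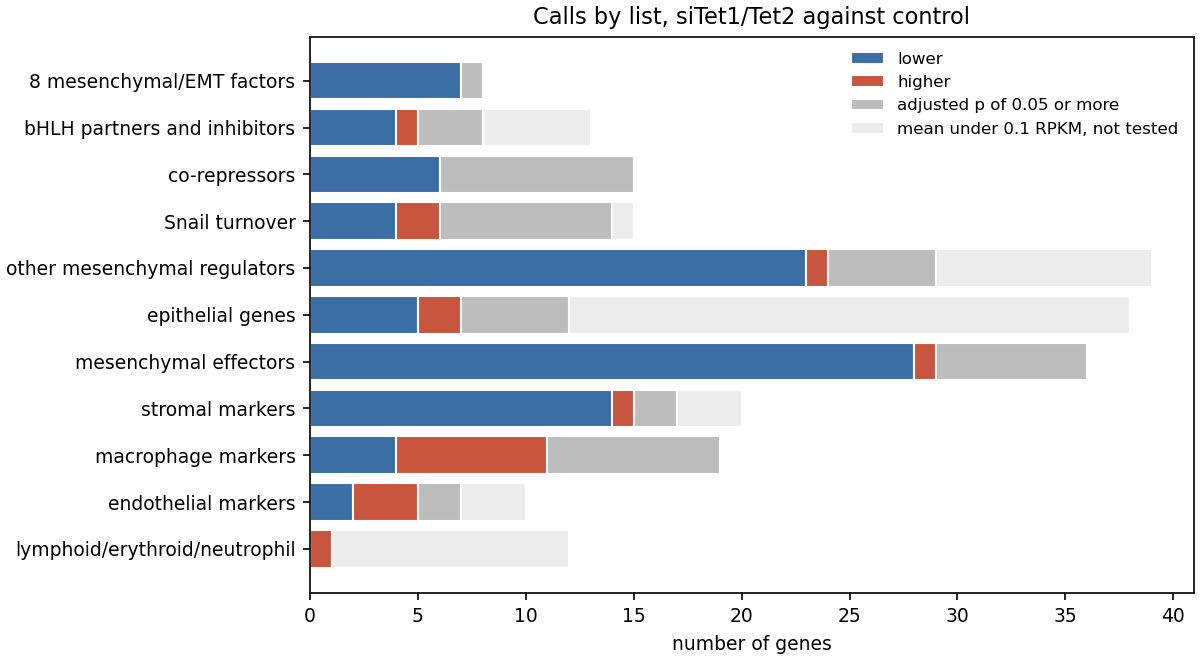
Number of genes in each list that were lower (blue), higher (red), did not pass the test (grey) or were under a mean of 0.1 RPKM and not tested (light grey), siTet1/Tet2 against control with RPKM as deposited. Calls toward lower were most of the factors (7 of 8) and of the other mesenchymal regulators (23 of 29 tested). They were also most of the mesenchymal effectors (28 of 36) and of the stromal markers (14 of 17). Macrophage markers had more calls toward higher (7 of 19). Over the 4 forms of centring on the stromal list, calls toward lower were 0 to 4 for the factors and 0 to 7 for the other regulators. They were 2 to 7 for the effectors and 3 to 9 for the stromal markers, beside 0.463% to 2.73% of the calls over all genes.

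The profiles most like those of the 7 factors were sought among all genes tested, by the Euclidean distance between log2 profiles over the 6 libraries, each centred on its own mean. The closest match of all was Tgfb1i1 (Hic-5, a focal adhesion protein) to Snai1, at a distance of 0.06, with means of 34.6 and 7.46 RPKM, followed for Snai1 by Bmp1 and Ehd2. The nearest to Snai2 were Osmr, Parp14 and Ctnnd2, to Twist1 Parva, Syde1 and Tmem119, to Zeb1 Rhobtb3, Nckap1 and Glis2, and to Prrx1 the collagen cross-linking enzyme Lox, Fmod and Il17rc. Prrx2 was nearest to Masp1, Mxra8 and, as Snai1, Tgfb1i1. Twist2, whose control libraries were ordered differently, was nearest to H2-T22, Slamf9 and Cxcl1. Adding 1 compresses low genes, so that matched genes can differ in their change in RPKM. Twist2 went from a mean of 2.53 to 0.337 RPKM but H2-T22 from 67.9 to 25.1 RPKM, and Snai2 from 9.17 to 1.65 RPKM but Ctnnd2 from 2.98 to 0.129 RPKM. The matches are descriptions over 6 libraries that share the contrast between the groups.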

How the data were processed

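RNA-seq was performed on 3 control and 3 siTet1/Tet2 BMMSC libraries. Per the methods, adaptor-trimmed reads were mapped by the authors to GRCm38 and quantified in DNASTAR Lasergene. Their deposited values are linear RPKM, which the methods call FPKM, in 36915 rows, with 0.001 as the lowest value. The annotation and the use of strand are not given in the sources used here. Every value column was mapped to a sample, and the authors' p-value column was not used.

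Of repeated symbols (37), the most abundant row was used. Symbols with a mean of at least 0.1 RPKM (13266) were fitted on log2(RPKM + 1), by limma 3.58.1 under R 4.3.3 (lmFit and trended eBayes, two-sided) and called at a Benjamini-Hochberg adjusted p under 0.05. Log2 fold changes are siTet1/Tet2 minus control and understate changes of low genes. The fit was tested on simulated data. Paralog ratios were compared with exact two-sided permutation tests in Python 3.11.15. Depth was estimated from low values of genes that GENCODE M21 lists with 1 transcript, on GRCm38, which also gave positions, and because the depth was chosen for its match to whole reads no count test was run. Reads per gene used the longest transcript.

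The members and lists were chosen with earlier results of these data known. The text names all members, up to 4 called genes with the lowest p per list and direction, defining markers, the 3 nearest profiles of each changed member and the Tet genes; Snai3, Vim, Lepr, Lum and Thy1 were added after their values were seen. Some genes that the rule names are not reported here. Of the listed marker genes Hbb-b1 was not matched, and Emr1 repeats Adgre1. The replicate numbers are shared by the groups in the labels. Deviations from the group means correlated at 0.149, 0.117 and 0.462 for same-numbered libraries, all over 0.1, so a fit with the number as a block was added. Other alternatives were other pseudocounts, filters, scalings, variance models and thresholds, the sum of repeated rows, and each library left out in turn. The paper's supplementary tables were not used here.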

Additional observations from a re-analysis of the deposited data

How the results depend on the processing

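With pseudocounts of 0.1 and 0.01, other filters, the same sum per library, median ratio scaling, quantile normalization, scaling to Gapdh, centring on the macrophage list, other variance models, summed repeated rows, the stricter threshold and each library left out, the 7 factors remained lower and Zeb2 was not called. The replicate block changed no call of a factor; with the block the paralog difference was -1.94 for Zeb1/Zeb2 and 1.02 for Prrx1/Prrx2 (exact sign-flip permutation p = 0.25, the smallest it can give). Centred on the level of the stromal list, 2 factors were lower and 1 higher: Snai2 was at -0.26, Twist1 at 0.13, Twist2 at 0.29, Zeb1 at 0.35, Prrx1 at 0.15 and Zeb2 at 1.81. In the form with a pseudocount of 0.01, added after seeing the data, 4 were lower and 1 higher, with Twist1 at -0.19, Zeb1 at -0.020, Prrx1 at 0.14 and Zeb2 at 1.99. Centred on the change of the stromal list, also added after seeing the data, 0 were lower and 3 higher: Snai1 at -0.031, Snai2 at 0.13, Twist1 at 0.52, Twist2 at 0.68, Zeb1 at 0.74, Zeb2 at 2.21, Prrx1 at 0.54 and Prrx2 at -0.18. With a pseudocount of 0.01 there, 0 were lower and 1 higher: Snai1 at -0.31, Snai2 at -0.20, Twist1 at 0.23, Twist2 at -0.57, Zeb1 at 0.40, Zeb2 at 2.41, Prrx1 at 0.56 and Prrx2 at -0.50. By construction the forms differ in the shift they give to all genes. The p-values of the stromal forms rest on a spread that all genes share, so calls near the threshold are uncertain. The Twist1/Twist2 difference was -0.16 with a pseudocount of 1, and the Snai1/Snai2 difference ranged from -0.25 to 0.13 with a library left out, turning positive without control replicate 1 (0.00064) and without siTet1/Tet2 replicate 1 (0.13).

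The all-gene median moved by 0.14 with quantile normalization, by -0.10 centred on the macrophage list, and by 1.67, 1.82, 2.06 and 2.23 in the 4 stromal forms. Of the genes called, 66.9% were lower in the main fit, 52.7% with median ratio scaling, 42.1% with quantile normalization, 80.7% centred on the macrophage list and 1.20%, 2.73%, 0.463% and 1.13% in the stromal forms. Genes called numbered 5905, against 3744 with no filter and 12937, 12138, 12958 and 12160 in the stromal forms. Lower calls ranged over the alternatives from 0 to 25 among other mesenchymal regulators (main 23), 2 to 30 among effectors (28), 3 to 15 among stromal markers (14), 0 to 6 among epithelial genes (5), 0 to 9 among co-repressors (6), 0 to 6 among bHLH genes (4), 0 to 5 for Snail turnover (4), 0 to 4 among macrophage markers (4) and 0 to 4 among endothelial markers (2). Higher calls ranged from 0 to 24, 1 to 16, 1 to 7, 0 to 11, 0 to 15, 0 to 7, 0 to 14, 2 to 18 and 1 to 7 in the same order, with the highest of each in a stromal form. Without read totals, counting error could not be given, and values near 0.1 RPKM rest on few reads.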
